A study of Bos taurus with 48 samples.

Results

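Genes used as markers of bile duct epithelium were examined in liver biopsies of grazing dairy cows around calving, together with AGR2. The set was named as AGR2, KRT7, KRT19, EPCAM, SOX9, CFTR and SPP1, and a spot was taken as a member when the gene name in the annotated expression matrix equalled one of them. Of these 7 genes, 6 were found, on 9 of 43803 spots and among 16312 named genes, of which 15010 could be tested. SOX9, the transcription factor of the biliary lineage, was not analysed here because no spot used carried that name. AGR2 was selected on its B5F125 minus B5F75 values, the difference with feeding level in cows of higher body condition, so these values are a description, and no member was tested there.

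Bile ducts are lined by cholangiocytes, which modify bile by secreting chloride, bicarbonate and water and make up a small part of the liver beside hepatocytes. KRT7 and KRT19 are keratins of their cytoskeleton, EPCAM is an epithelial adhesion protein, and CFTR is the chloride channel of their apical membrane. SPP1 encodes osteopontin, a secreted matrix protein that macrophages also make. AGR2 is a protein disulfide isomerase of the endoplasmic reticulum, known from mucus-secreting epithelia, where it helps mucins to fold. In whole biopsies, fewer cells of a type and less RNA per cell cannot be told apart.

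The study crossed prepartum body condition score (BCS4, thin, or BCS5, optimal) with an energy allowance before calving of 125 % or 75 % of estimated requirements. Liver was sampled from 32 cows of mixed age and breed, 8 per treatment, 7 d before calving (-7 d) and again 7 and 28 d after it. By the paper's figures, the 125 % cows had a lower mean age and fewer purebred Holsteins than the 75 % cows at each body condition. Feeding level is therefore not fully separate from age and breed. The 4 treatments are written B5F125, B5F75, B4F125 and B4F75. RNA of 2 cows was hybridised to each of 48 two-colour bovine oligonucleotide arrays, and each of 16 cow pairs was used on 3 arrays: 12 pairs joined 2 treatments on the same day (36 arrays), and 4 pairs joined 2 days of the same treatment (12 arrays). Every value is therefore a difference between 2 cows, on a log2 scale, after the array's median was taken off. A cow is repeated over the days, and nothing in the sources names a control treatment outside the 4.

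No source used here states which dye is the numerator of the deposited ratio. All values are given as Cy5 over Cy3, turned to the first-named treatment or the later day, and every sign in the text turns if Cy3 was the numerator. Values above and below 0 thus say which values lie on the same side, not which group had more RNA. With this orientation, 10 of 12 genes with a well-known course after calving ran opposite to it at 7 d against -7 d, and 11 of 12 did so at 28 d against -7 d. At 7 d against -7 d, HP, the acute phase protein haptoglobin, had -3.58 ± 0.87 (SE) and IGF1, the liver growth factor, had 0.91 ± 0.26 (SE), while CPT1A (0.01) and PDK4 (0.36) were the exceptions. All 48 arrays shared a common dye pattern (r = 0.025 to 0.316 with the mean ratio of the other arrays within a day). An r near 0 does not settle the orientation of a single array, and one numerator dye for all arrays was assumed.

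Arrays of the same cow pair share the difference between those cows, and 46 of 48 array pairs correlated positively over the 217 most variable genes (r = 0.108 to 0.678). Both remaining array pairs held the same array, that of days 28 and -7 in the B4F75 between-day pair. This array ran against the other arrays of its cows (r = -0.58 and -0.44), whereas its dye pattern had the usual sign (r = 0.240). The EPCAM and SPP1 values at 28 d against -7 d are given with it, without it and with its sign turned. The other fitted values at 28 d against -7 d include it, KRT19 probes and listed genes among them.

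**Figure D1:**
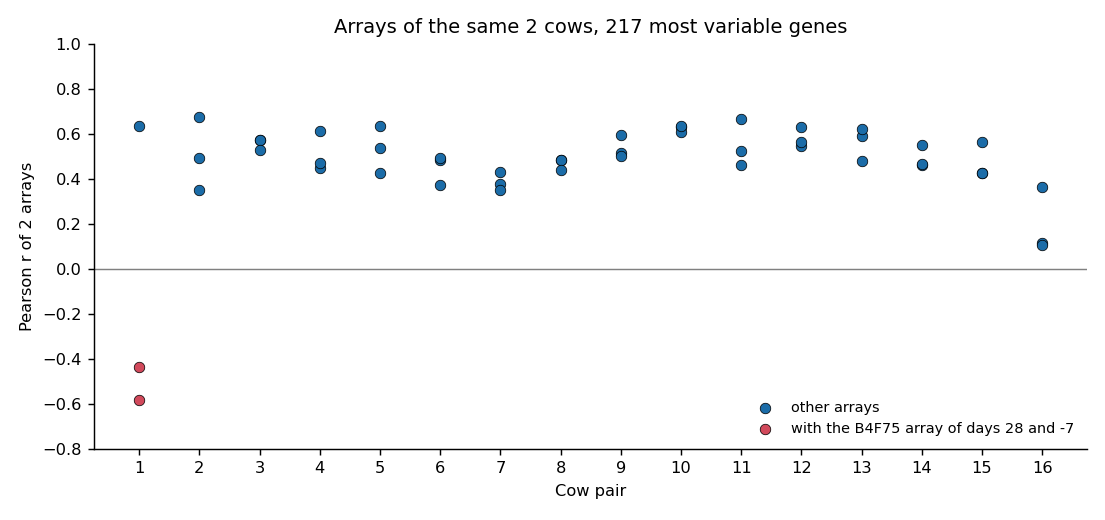
Pearson correlation of each 2 arrays of a cow pair over the 217 most variable genes (y axis), by cow pair (x axis, 1 to 16). The 2 points below 0 (red, r = -0.58 and -0.44) both hold the B4F75 array of days 28 and -7, and the other 46 lie between 0.108 and 0.678.

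The members differed in brightness, which set how finely a ratio could be read. The deposited values are log2 ratios of whole numbers, recovered in lowest terms and so lower bounds of the signals behind them. For the AGR2 probes, the median smaller and larger numbers were 1 and 5 (probe 1, 25 arrays) and 1 and 4 (probe 2, 18 arrays), so that 1 unit more in the smaller number moved the log2 ratio by a median of 1.0. SPP1 had medians of 4 and 10 (a step of 0.32), CFTR 26 and 39, and KRT7 24 and 41. The EPCAM probes were brighter, with 88.5 and 237 for probe 1 and 154 and 387.5 for probe 2, and the KRT19 probes differed from each other, with 4549.5 and 5445.5 for probe 1 and 108 and 171.5 for probe 2. Over all spots the median larger number was 26. AGR2 was thus the dimmest member: it had a value on 34 of 48 arrays and SPP1 on 43, while the other 4 members had one on all 48.

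AGR2 values in B5F125 against B5F75 cows, the comparison it was picked for, lay below 0 on all 5 of 6 direct arrays that had a value. In one pair of cows the values were -1.57 at -7 d, -3.14 at 7 d and -0.41 at 28 d. In the other pair they were -1.32 at -7 d and -2.47 at 28 d, and the array at 7 d was blank. The value of -0.41 was a deposited ratio of 0, from equal whole numbers, moved by the centring of its array, so before centring 4 of the 5 lay below 0. At 7 d the direct value rested on 1 array, whose whole numbers were 5 and 47 on probe 1 and 1 and 17 on probe 2. Across all arrays, the estimated B5F125 minus B5F75 difference was -1.04 ± 0.61 at -7 d, -3.20 ± 0.73 at 7 d and -0.50 ± 0.59 at 28 d, and -1.58 ± 0.43 averaged over the days (SE). Both probes had this side at 7 d, with -3.34 ± 0.89 for probe 1 and -3.40 ± 1.20 for probe 2. Leaving out 1 cow pair at a time gave -1.93 to -1.12 for the average, and at 28 d gave -0.85 to 0.37, the value above 0 being that without the pair whose arrays read -1.32 and -2.47.

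**Figure D2:**
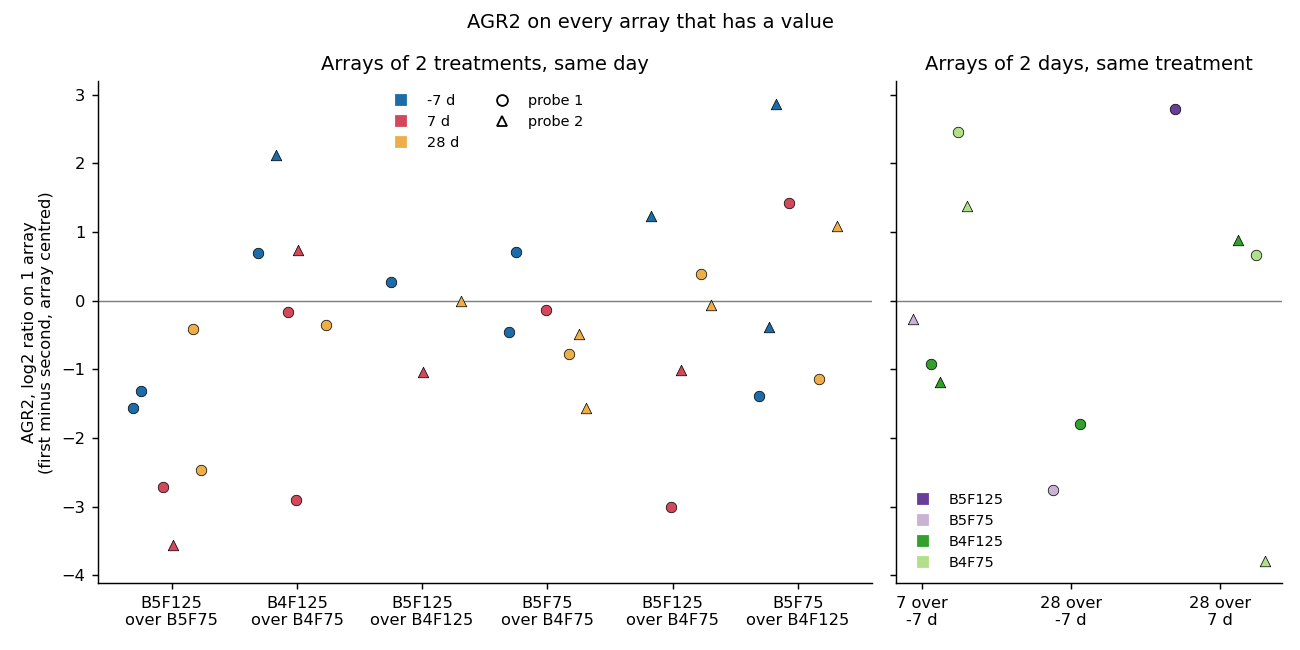
AGR2 log2 ratio on each array with a value (y axis, array median taken off), by the 2 treatments or the 2 days it compared (x axis). Colour marks the day (left) or the treatment (right), circles probe 1 and triangles probe 2. All B5F125 over B5F75 values lie below 0, and those of B4F125 over B4F75 spread from -2.90 to 2.13.

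In BCS4 cows, AGR2 values for the same feeding contrast lay on both sides of 0. The direct arrays of B4F125 over B4F75 read 0.69 at -7 d and 0.28 at 7 d in one pair of cows, with a blank at 28 d. In the other pair they read 2.13, -2.90 and -0.36 at -7, 7 and 28 d. There the value at -7 d came from probe 2 alone and the later values from probe 1 alone, so days and probes cannot be told apart. In the first pair at 7 d, the probes lay on opposite sides (-0.17 for probe 1 and 0.74 for probe 2). Both AGR2 probes had a value on 9 of 34 arrays (r = 0.53), and differed there by up to 4.46. The direct values at -7 d were thus both above 0, and those at 7 d were divided. The estimated difference was 0.90 ± 0.56 at -7 d (adjusted p = 0.999), -1.47 ± 0.58 at 7 d (adjusted p = 0.846) and -0.50 ± 0.64 at 28 d (adjusted p = 0.999), and -0.35 ± 0.41 averaged over the days, with limma. None of these met the rule for a call used throughout, an unadjusted p of at most 0.01 with a fold change of at least 1.5 in this fit, thresholds taken from the study's methods.

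The change of the AGR2 feeding difference between days in BCS4 cows was the only member value called. At 7 d against -7 d, the B4F125 minus B4F75 difference of AGR2 differed by -2.37 ± 0.69 (limma, adjusted p = 0.725), in a comparison where 0.913 % of all genes were called. At 28 d against -7 d it differed by -1.41 ± 0.78 (adjusted p = 0.983), where 1.11 % of genes were called, and at 28 d against 7 d by 0.97 ± 0.77, where 1.03 % were. The call did not hold with 1 probe alone (-2.27 ± 0.90 for probe 1 and -2.85 ± 1.28 for probe 2), on the 36 arrays within a day (-1.70 ± 0.82), or without cow pair 1 (-1.59), 7 (-1.81) or 8 (-2.17). The matching values in BCS5 cows, which share samples with the comparison AGR2 was picked for, were -2.16 ± 0.89 at 7 d against -7 d, 0.54 ± 0.77 at 28 d against -7 d and 2.70 ± 0.84 at 28 d against 7 d (SE, no test).

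In that 7 d against -7 d comparison, where 0.913 % of all genes were called, 3 other listed genes were called, all on the side of AGR2. These were TFF3, a trefoil peptide secreted with mucins (-1.77 ± 0.65), S100A9, a neutrophil calcium-binding protein (-1.82 ± 0.48), and CCNB1, the mitotic cyclin (-2.98 ± 1.08). Their adjusted p was 0.850, 0.626 and 0.850 (limma). They came from lists of 20, 10 and 10 measured genes, and outside the members no other list held a call there. Of 10 measured neutrophil markers, 3 lay above 0, with a median of -0.46 and a range of -1.82 to 0.50. Of 17 macrophage and Kupffer cell markers, 15 lay above 0, with a median of 0.30, and 26 hepatocyte markers had a median of 0.09, beside a median of 0.03 over all genes. The part of these cells in the AGR2 value was not tested.

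The other members were set beside AGR2 for feeding in BCS5 cows, also without a test. Their estimates averaged over the days all lay below 0, as did that of AGR2, whose side was fixed by its selection. Over all genes 52.5 % lay above 0, and the members share the same cows, so their sides are not separate observations. The share of all genes past the call rule in this comparison was 0.673 % at -7 d, 1.07 % at 7 d, 0.386 % at 28 d and 0.46 % averaged. SPP1 came nearest to AGR2. Its direct B5F125 over B5F75 values were -1.68, -2.06 and 0.23 at -7, 7 and 28 d in one pair of cows, and -2.93 at 7 d and -2.98 at 28 d in the other, which had a blank at -7 d. Thus 4 of 5 SPP1 arrays lay below 0, and the estimate averaged over the days was -1.23 ± 0.50 (SE), or -0.73 without the second pair. KRT7 read 0.63, -1.74 and 0.26 in the first pair and -1.80, -0.83 and -0.82 in the second, with an estimate of -0.47 ± 0.26. Only in the second pair were all 3 KRT7 arrays on one side.

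EPCAM divided by cow pair rather than by feeding level. EPCAM read -1.79, -2.02 and -2.07 at -7, 7 and 28 d in the first B5F125 over B5F75 pair and 0.93, 0.94 and 0.99 in the second, so its estimate of -0.54 ± 0.44 averaged 2 opposite pairs. CFTR read 0.48, -0.09 and 1.66 in the first pair and -0.95, -0.37 and -1.06 in the second, on both sides of 0 in the first pair and below it in the second, with an estimate of -0.19 ± 0.23. KRT19, as the mean of 2 probes, lay below 0 on all 6 direct arrays, from -0.99 to -0.10 with a median of -0.38. Its probe 1 alone lay above 0 on 2 of them, and the KRT19 estimate over all arrays was -0.15 ± 0.13. These direct arrays hold 4 cows.

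**Figure D3:**
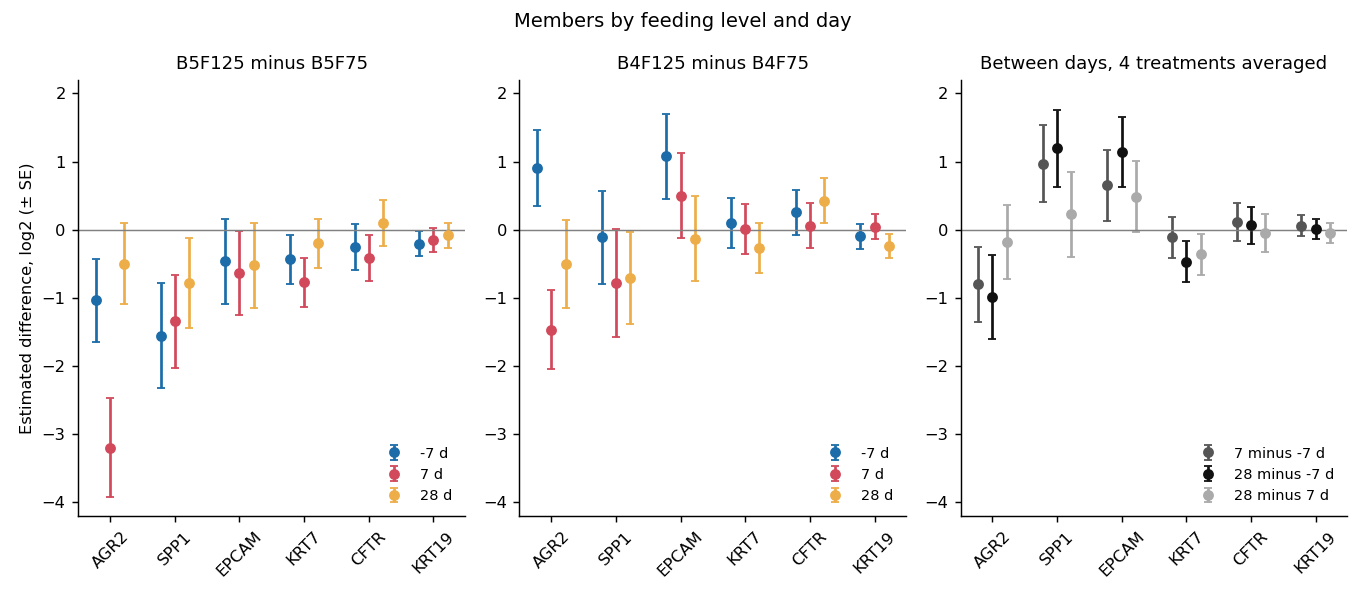
Estimated log2 difference (points) and standard error (bars) of the 6 members, for B5F125 minus B5F75 (left) and B4F125 minus B4F75 (middle) at -7, 7 and 28 d, and between days over the 4 treatments (right). In BCS5 cows AGR2 at 7 d lies at -3.20 ± 0.73, in BCS4 cows at -1.47 ± 0.58, and KRT19 stays within 0.3 of 0 in each panel.

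For feeding in BCS4 cows, 0 of 6 members were called at any day or on average. The share of all genes called was 0.48 % at -7 d, 1.01 % at 7 d, 0.866 % at 28 d and 0.473 % averaged over the days. EPCAM had the largest member estimate in size after AGR2, 1.07 ± 0.62 at -7 d (limma, adjusted p = 0.999), with values of 0.50 ± 0.62 at 7 d and -0.13 ± 0.62 at 28 d. SPP1 had -0.11 ± 0.68, -0.78 ± 0.79 and -0.71 ± 0.68 at -7, 7 and 28 d. Estimates of KRT7, CFTR and KRT19 ranged from -0.27 to 0.42.

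For BCS5 against BCS4, averaged over both feeding levels, 0 of 6 members were called either, where 0.313 % of all genes were called at -7 d, 0.894 % at 7 d, 0.273 % at 28 d and 0.187 % on average. EPCAM had 0.82 ± 0.44 at -7 d and SPP1 0.88 ± 0.50 (limma, adjusted p = 0.999 for both). Those 2 members had the largest estimates at -7 d, and AGR2 had 0.49 ± 0.45, -0.72 ± 0.49 and -0.49 ± 0.44 at -7, 7 and 28 d. One cow pair decided the EPCAM result: without cow pair 10, of B5F125 and B4F125, EPCAM had 1.22 at -7 d and 0.85 on average, both past the call rule, against 0.44 ± 0.31 on average with it. The fit gave every gene a correlation of 0.130 between arrays of a cow pair, whereas EPCAM alone had 0.689. The standard error of its average over the days, and the call that rests on it, are therefore too favourable.

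Between days, with the 4 treatments averaged, no member was called, while 1.49 % of all genes were called at 7 d against -7 d, 2.08 % at 28 d against -7 d and 1.85 % at 28 d against 7 d. EPCAM on the direct arrays read 3.56, 0.79, 0.42 and 1.62 for 7 over -7 d in B4F75, B4F125, B5F75 and B5F125 cows. For 28 over 7 d the 4 EPCAM values were 2.99, 1.14, 0.34 and 1.27, in the same order. For 28 over -7 d they were 3.10, -0.86, 0.09 and -1.59. The first 2 sets lay above 0 in every treatment and the last was divided, and the value of 3.10 came from the array that ran against its cow pair. In all 4 pairs the cow with the later day at 28 over -7 d was the other cow than in the first 2 sets, so a constant difference between the cows alone turns the sign. In a fixed order of the cows, EPCAM kept 1 side on all 3 arrays in B4F125 and B5F125. On a single array, days and cows cannot be told apart. Over the 3 arrays of a pair, a constant difference between the cows cancels for a gene with a value on each. The fit, where it cancels, gave EPCAM 0.65 ± 0.52 at 7 d against -7 d and 0.49 ± 0.52 at 28 d against 7 d.

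The fit over all arrays gave EPCAM 1.14 ± 0.52 at 28 d against -7 d (limma, adjusted p = 0.394, the lowest of any member value). Without that array it was 0.72 ± 0.56, and with its sign turned 0.10 ± 0.51. SPP1 rested on the same cows: in B4F75 it read 4.31 for 7 over -7 d, 2.26 for 28 over 7 d and 4.85 for 28 over -7 d, whereas the other treatments lay between -1.18 and 0.82. Its fit of 1.19 ± 0.57 at 28 d against -7 d (adjusted p = 0.423) became 0.26 ± 0.56 without the array and -0.50 ± 0.53 with its sign turned. Without cow pair 8, SPP1 had 1.94 ± 0.64, past the call rule.

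In the fit over all arrays, AGR2 lay below 0 in all 3 comparisons of days. It had -0.80 ± 0.55 at 7 d against -7 d (limma, adjusted p = 0.762), -0.99 ± 0.61 at 28 d against -7 d (adjusted p = 0.560) and -0.18 ± 0.54 at 28 d against 7 d (adjusted p = 0.936). Without cow pair 1 the last was 0.40. The direct AGR2 arrays lay below 0 on 2 of 3 for 7 over -7 d, 2 of 2 for 28 over -7 d and 1 of 3 for 28 over 7 d. KRT7 had -0.47 ± 0.30 at 28 d against -7 d (adjusted p = 0.566). CFTR on the direct arrays read 0.57, 0.63, 0.31 and 0.45 for 7 over -7 d in B4F75, B4F125, B5F75 and B5F125 cows, and -0.02, -0.35, -0.56 and -0.32 for 28 over -7 d. All 4 CFTR values of the first set lay above 0 and all 4 of the second below it, and the cows were in opposite order in these 2 sets. In a fixed order of the cows, CFTR had one side on all 3 arrays in 3 of the 4 pairs. A single one of these values cannot be told apart from a difference between cows. In the fit over all arrays, a constant difference between the cows of a pair cancels for CFTR, and it gave 0.12 ± 0.28 and 0.06 ± 0.28.

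Over the 14 tested comparisons, 1 of 84 member values was called (1.19 %), against 0.927 % of 209976 values over all genes. A p below 0.05 was found for 4 of the 84 (4.76 %), against 5.47 % over all genes. The lowest adjusted p of a member was 0.394, and 5 values of any gene had an adjusted p below 0.05. The members' share was therefore near the background.

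EPCAM was the member whose values were tied most closely to the cows. In 10 of 12 cow pairs of different treatment, EPCAM lay on the same side of 0 on all 3 days, whereas the median gene did so in 4 pairs and 0.351 % of 10813 genes did so in as many pairs or more. In B5F125 over B4F125 pair 10 it read -2.24, -3.03 and -2.21 at -7, 7 and 28 d. In B5F125 over B4F75 pair 3 it read 1.72, 1.78 and 1.64. The SD between days within a pair was 0.327, against an SD of 1.36 between the means of the pairs, which ran from -2.49 to 1.74. EPCAM lay above 0 on all 6 arrays of B5F125 over B4F75 (0.80 to 1.78) and on all 6 of B5F75 over B4F125 (0.79 to 2.05), each from 2 cow pairs. The 2 EPCAM probes gave the same picture (r = 0.975 over 48 arrays).

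KRT7 kept 1 side in 7 of the 12 pairs and CFTR in 5. CFTR in cow pair 10 read -1.31, -1.79 and -1.51, and KRT7 there read -1.49, -1.23 and -1.42, and SPP1 -0.73 to -0.17, so with EPCAM 4 members lay below 0 in that pair on every day. The correlation between arrays of a cow pair was 0.689 for EPCAM (percentile 98.3 of all genes tested), 0.561 for CFTR (95.9), 0.458 for KRT7 (91.5) and 0.399 for AGR2 (87.7). It was 0.179 for KRT19 and -0.137 for SPP1, against a median of 0.125 over all genes. The fit used 0.130 for every gene, so standard errors of averages over the days are too small for members well above that, EPCAM most. Differences between individual cows and treatment differences carried by the same cows share these values.

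**Figure D4:**
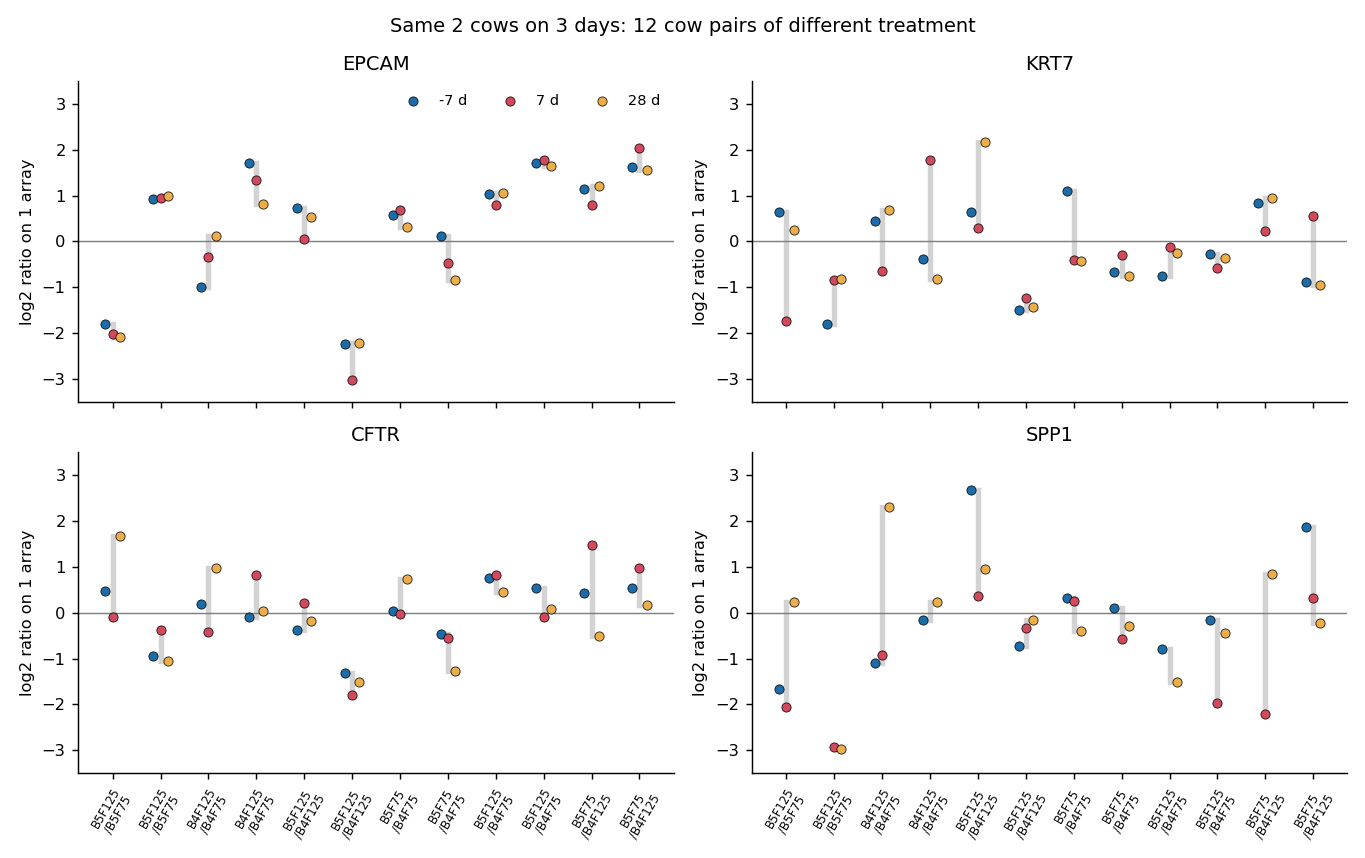
Log2 ratio (y axis) of EPCAM, KRT7, CFTR and SPP1 on the 3 arrays of each of 12 cow pairs that joined 2 treatments (x axis, first over second). Colours mark the day, and grey bars span the 3 values. EPCAM values of a pair lie close together, with an SD of 0.327 within pairs against 1.36 between pair means.

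The KRT19 probes disagreed. Their ratios had r = -0.30 over 48 arrays and shared a sign on 22 of them, so their average had a small spread (SD 0.36, percentile 12.5 of all genes). The dimmer probe 2 ran with KRT7 (r = 0.66), the second highest correlation of any gene with that probe after SMURF2 (r = 0.69), while the brighter probe 1 had r = -0.33 with KRT7. The genes most like probe 1 were IL2RG (r = 0.94), C11H9orf172 (r = 0.93) and TIFAB (r = 0.93), and 8.44 % of genes had a correlation with it above 0.5 in size. At 28 d against -7 d, probe 1 had 0.43 ± 0.19 and probe 2 -0.41 ± 0.25, on opposite sides. For B5F125 over B5F75, probe 2 read -0.08, -1.74 and -0.58 at -7, 7 and 28 d in the first pair of cows and -0.46, -0.32 and -0.91 in the second, all below 0, with an estimate of -0.23 ± 0.22. Probe 1 was divided on the same 6 arrays, with 4 below 0 and 2 above it (-0.66 to 0.36), and an estimate of -0.06 ± 0.16. Which probe reports the keratin was not tested, and KRT19 values are uncertain for that reason.

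**Figure D5:**
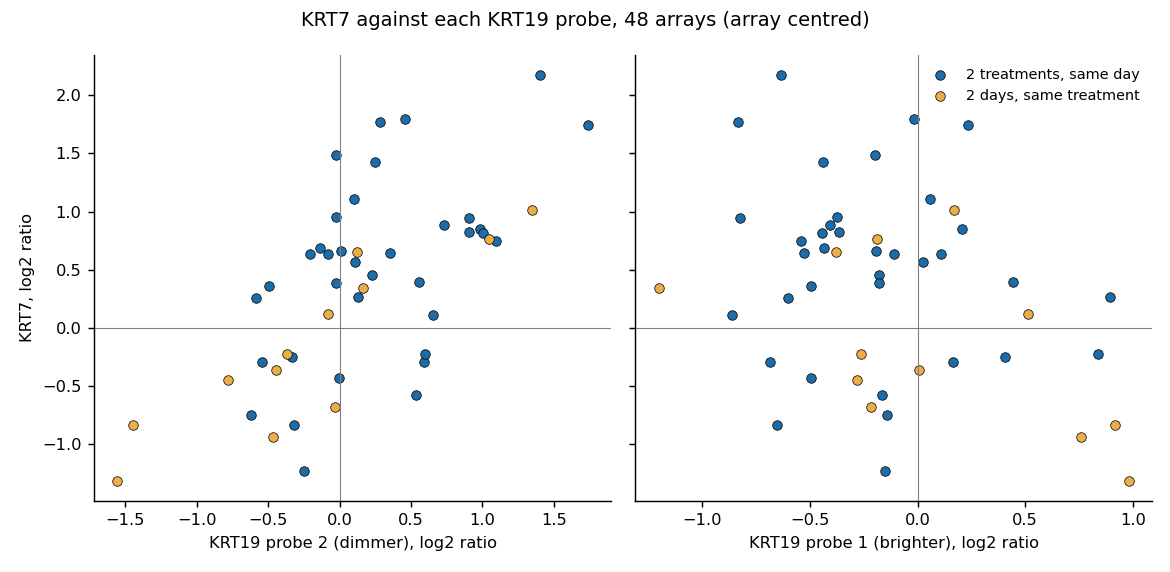
KRT7 log2 ratio (y axis) against the log2 ratio of KRT19 probe 2 (left) and probe 1 (right) on 48 arrays, coloured by whether an array joined 2 treatments or 2 days. Points climb together on the left (r = 0.66) and not on the right (r = -0.33).

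The members did not vary as 1 set. Over the 21 pairs among them, with KRT19 probes taken singly, a correlation above 0.5 was found for KRT7 with KRT19 probe 2 and for AGR2 with SPP1 (r = 0.52, rho = 0.40, 30 arrays), and arrays share cows, so no p is given. AGR2 had r = 0.38 with CFTR, 0.24 with EPCAM and 0.15 with KRT7. EPCAM and SPP1 had r = 0.41, which was 0.10 without cow pair 1. Their spread over arrays also differed: SPP1 (SD 1.60), AGR2 (1.55) and EPCAM (1.52) were above percentile 98 of all genes, KRT7 (0.83) and CFTR (0.73) at percentiles 69.6 and 63.6, against 0.586 for the median gene.

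With the probes of a gene averaged, the genes most like each member came from outside the set. Over its 34 arrays, AGR2 was most like GNAL (r = 0.63), TMEM136 (0.59), PLCB4 (0.59), MEIS2 (0.58) and TM4SF1 (0.56). KRT7 was most like NDRG1 (r = 0.75), CYB561 (0.66) and TIMELESS (0.63), and CFTR was most like TMEM125 (0.62), LAMB1 (0.59) and SLC6A14 (0.59). Taken singly, KRT19 probe 2 had r = 0.655 with KRT7, above that of TIMELESS. EPCAM had CNEP1R1, MUTED and DNAJC16 (r = 0.59 to 0.60), SPP1 had FLRT3, RAB27A and DEFB4A (r = 0.65 to 0.68), and averaged KRT19 had FXYD2, GALR2 and AGFG2 (r = 0.58 to 0.60).

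Further bile duct genes were counted over the 14 comparisons, in which 0.927 % of all values were called. Of 19 measured keratins and adhesion genes of ducts, none was called in any of 266 values. Among 21 transcription factors and Notch genes, 1 of 294 values was called above 0 and 5 below it (2.04 %). FOXA3, a liver forkhead factor, had 1.27 ± 0.32 at 28 d against -7 d. EHF, an epithelial ETS factor, had -1.51 ± 0.51 for B4F125 against B4F75 at 28 d and -2.28 ± 0.63 for the BCS4 feeding difference at 28 d against -7 d. HEY1, a Notch target, had -1.30 ± 0.42 at 28 d against 7 d and -1.08 ± 0.33 for BCS5 against BCS4 at 7 d, and SOX4 had -0.84 ± 0.30 for BCS5 against BCS4 at 28 d. Of 19 secretion and transport genes, SSTR2, a somatostatin receptor, had 0.77 ± 0.22 for B4F125 against B4F75 at 7 d and was the only call.

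Genes that share a role with AGR2 gave the following calls. Of 20 measured mucosal secretory partners, 2 of 280 values were called above 0 and 3 below it (1.79 %), with TFF3 as given for the BCS4 feeding difference. SPDEF, the transcription factor of goblet cells, had 1.00 ± 0.24 at 28 d against 7 d, and TSPAN8 (-0.85 ± 0.25) and LGALS4 (-0.96 ± 0.23) lay below 0 at 28 d against -7 d. LGALS4 also had 1.08 ± 0.34 for the BCS4 feeding difference at 28 d against -7 d. Of 19 protein disulfide isomerases, P4HB, the general isomerase of the secretory pathway, had -0.65 ± 0.19 at 7 d and -0.79 ± 0.19 at 28 d against -7 d. In the ductular reaction list, TNFRSF12A, the TWEAK receptor, had -0.85 ± 0.29 for B4F125 against B4F75 at 28 d and TGFB2 -1.07 ± 0.39 at 7 d against -7 d. All of these had adjusted p above 0.09 (limma).

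Markers of other tissues and cells were counted in the same way. Erythroid genes had 7 of 98 values called (7.14 %), with HBB at 1.82 ± 0.48 at 7 d and 1.80 ± 0.48 at 28 d against -7 d, and neutrophil markers had 6 of 140 (4.29 %). Of 210 values of 15 gut and pancreas genes, 3 were called above 0 and 2 below it (2.38 %). CDX2, an intestinal homeobox factor, had -1.18 ± 0.35 for B4F125 against B4F75 at 7 d and 1.28 ± 0.42 for the BCS4 feeding difference at 28 d against 7 d. GCG, which encodes glucagon, had 1.63 ± 0.55 at 28 d against -7 d, LGR5, an intestinal stem cell receptor, had 1.21 ± 0.43 at 7 d against -7 d, and CDH17, an intestinal cadherin, had -0.69 ± 0.24 for B4F125 against B4F75 averaged over the days. Portal fibroblast and lymphocyte lists had 0 calls in 238 and 154 values, and hepatocyte markers 3 of 364. In B5F125 against B5F75 at 7 d, where AGR2 had its largest value, 7 of 7 erythroid and 9 of 10 neutrophil markers lay above 0. Their medians were 0.47 and 0.30, against 0.02 over all genes and -0.70 for the 6 members, among them AGR2, picked for this contrast. The part of these cells in the members' values was not tested. Of the 18 lists, only the erythroid and neutrophil lists and the members are given for this contrast at 7 d, and none was tested there.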

How the data were processed

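The authors scanned 48 two-colour arrays and deposited log2 ratios, with 15.95 % of values blank (1.42 to 21.5 % per array). Their methods name Lowess normalization and centring of arrays, but the deposited log2 ratios are those of whole numbers with array medians of 0 to 0.521, so neither step was visible in them. Each array was centred on its median here, with no Lowess step. The genome build is not given in the sources used here. Gene names came from the annotated matrix, of which 48 value columns matched no sample and were not used. Of 16628 written names, 361 that lacked the digit 0 were restored, and 291 ambiguous names and 25 names turned into dates were left out. Where a gene had several probes, their mean was taken per array. Precision is limited by the number of arrays and, for dim spots, by whole-number signals.

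Each ratio was fitted as the difference of its 2 groups (12 groups of treatment and day) plus a dye term, with limma 3.58.1 (R 4.3.3, statmod 1.5.0), the 2 cows of an array as a random block (correlation 0.130), standard errors solved exactly for blanks, and genes on at least 24 arrays. p-values were adjusted by Benjamini-Hochberg over all genes tested, and scripts were tested on simulated data. The block follows the cows named in the labels. Samples were grouped by the labels' dye, treatment and day. p-values measure the spread between arrays of these cows. Members, lists and comparisons were chosen with earlier results of these data known. Genes named are the members, listed genes called in a tested comparison (up to 4 per list and comparison), genes needed to describe a role, genes of known course, and the 5 genes most correlated with AGR2 or 3 with each other member on at least 40 arrays. AGR2 has 34 arrays, so its likeness used genes on all 34, a rule chosen after seeing the data. Alternatives covered centring, scaling, probes, dye term, block, weights, minimum arrays, direct arrays, each cow pair left out and an adjusted p. The within-day arrays alone, day arrays turned, single probes, and the array that ran against its cow pair left out or turned were chosen after seeing the data.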

Additional observations from a re-analysis of the deposited data

Results flagged for a closer look

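AGR2 is listed because its feeding difference in BCS4 cows differed between days in a test of that difference, by -2.37 on the log2 scale at 7 d against -7 d, among 6 members tested in this comparison. CFTR is listed because its direct arrays ran opposite ways in 2 contrasts: 4 of 4 values of 7 over -7 d lay above 0 (mean 0.49) and 4 of 4 of 28 over -7 d lay below 0 (mean -0.31), a difference that was not tested. The 2 cows of each pair were in opposite order in these contrasts, so days and cows cannot be told apart from these 2 contrasts alone. In the fit over all arrays, a constant difference between the cows of a pair cancels for CFTR. It gave 0.12 ± 0.28 at 7 d and 0.06 ± 0.28 at 28 d against -7 d. No group held enough arrays for a check for single outlying arrays.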

How the results depend on the processing

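Of 3192 member values recomputed under alternatives, 3034 stayed called, or were not called and moved by less than 1 SE of the main fit. Another 142 moved by more, 9 lost the call, 6 gained it and 1 took a call on the other side. Among values called in neither setting, 209 changed sign. The B5F125 minus B5F75 values, which carry no test, are included. The AGR2 feeding difference in BCS4 cows at 7 d against -7 d (-2.37) was -2.26 with the probe measured on most arrays, -1.78 with array quality weights, -1.70 on the 36 arrays within a day, -0.43 with the 12 day arrays turned, -2.27 with probe 1 and -2.85 with probe 2 (none of these called), and -2.85 to -1.59 with 1 cow pair left out. The count of members called there was 1, and 0 under those settings, on genes measured on all 48 arrays (AGR2 not among them) and at an adjusted p below 0.05; with 1 pair left out it was 0 or 1, being 0 without pairs 1, 7 and 8. Without the replicate block the value was -2.34. In B4F125 against B4F75 at 7 d, 1 member was called without the dye term (AGR2, -1.67), and 0 to 1 with 1 pair left out. BCS5 against BCS4 at -7 d and averaged, and 28 d against -7 d, also had 0 to 1.

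Differences between days rest on the 12 day arrays alone, so turning these turns the sign by construction, exactly so for a gene on all arrays. The direct arrays holding both days also carry the difference between the cows, which cancels in the fit for such a gene. EPCAM at 28 d against -7 d (1.14) was 0.19 on arrays holding both days and -1.14 with the day arrays turned. It was 0.10 with the B4F75 array turned, and 0.14 to 1.53 with 1 pair left out. SPP1 (1.19) was -1.15 with the day arrays turned, 0.26 without that array and -0.50 with it turned, and -0.40 to 1.94 with 1 pair left out. With the day arrays turned, SPP1 for the BCS4 feeding difference at 28 d against -7 d had 2.32, called, against -0.60, and 1 member was called. The cause was not tested. At 28 d against 7 d, EPCAM (0.49) was 1.44 on arrays holding both days, -0.49 with the day arrays turned, -0.031 with the B4F75 array turned and 0.06 to 0.78 with 1 pair left out, and SPP1 (0.23) was 1.02, -0.15, -0.73 and -0.71 to 0.72. Of 54 single-day values, 7 changed sign on the 36 arrays within a day. Among all genes, 312 were called at 28 d against -7 d, against 141 with arrays scaled, 155 on arrays holding both days, 3 at an adjusted p below 0.05, and 209 to 663 with 1 pair left out.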
